A study of Mus musculus with 6 samples.

Results

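Heat shock proteins and chaperones are proteins that help other proteins fold, keep them from clumping and hand damaged ones on for breakdown. Some are made at high levels in all cells, and others are switched on by heat shock factor 1, a transcription factor freed when unfolded proteins accumulate. Hsp70 proteins bind unfolded stretches in a cycle of ATP hydrolysis that J-domain proteins start and exchange factors such as Hsp110 end, Hsp90 finishes the folding of kinases and receptors, and Hsp60 with its lid Hsp10 folds proteins inside mitochondria. In T cells, Hsp90 clients include the kinase Lck. The 10 genes described here were chosen by symbol and comprise 5 inducible members (Hspa1a, Hspa1b, Hsph1, Dnajb1 and Hsp90aa1) and 5 constitutive members (Hspa8, Hsp90ab1, Dnaja1, Hspd1 and Hspe1) among the 47643 genes of the table. The split follows textbook use, and it is not absolute, since heat also raises several of the constitutive members.

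The libraries were made from NKT1 cells, the T-bet-expressing subset of invariant natural killer T (iNKT) cells, a T cell lineage with a nearly fixed receptor for lipids shown by CD1d. The cells were sorted by flow cytometry from the thymus of WT BALB/c mice with no treatment named, as 3 libraries of CD4-positive and 3 of CD4-negative cells. Polyadenylated RNA was sequenced. The labels do not say whether replicates are separate animals, and a p-value therefore reflects only how far these libraries scatter, which may be technical. The libraries held 40480468 to 53145898 estimated counts. Levels are given in CPM scaled by TMM, that is, as counts per library size after a step that evens out differences in composition, and every mean is given ± SD with n = 3.

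Cd4, the sort marker, stood at 508, 401 and 450 CPM in CD4-positive replicates 1, 2 and 3 and at 16.0, 10.9 and 41.2 CPM in CD4-negative replicates 1, 2 and 3. All 8 T cell and NKT1 markers examined, Zbtb16 and Tbx21 among them, had enough counts to be tested. Markers of other cells were low, with 5 myeloid markers summing to at most 1.68 CPM and 5 thymic stroma markers to at most 2.998 CPM. The 5 markers of double-positive thymocytes summed to 15.9 to 132 CPM and the 5 erythroid markers to 276 to 701 CPM. Transcripts of 4 Y-linked genes were counted in replicate 1 of both groups (466 and 523 counts), and at most 1 such count was found in any other library. The X-linked transcript Xist was counted in every library, given here in CPM without TMM scaling. It stood at 122.6 and 120.9 CPM in CD4-positive and CD4-negative replicate 1, against 121.0 to 180.9 CPM in the others. The sex of the mice was not tested. CD4-negative replicate 3 had counts for the fewest genes (13787, against up to 16267), and its share of mitochondrial counts, like that of CD4-positive replicate 1, was low (1.33% and 1.35%, against 3.51% to 5.19% in the other libraries).

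Promoters of heat-inducible genes typically carry heat shock elements, the repeats of alternating GAA and TTC that heat shock factor 1 binds. RefSeq promoter windows (build GRCm38.p6, 250 bases before to 50 after a start site) were found for 7 of the 10 members and were searched on both strands for the 2-unit words GAANNTTC and TTCNNGAA, each its own reverse complement, and for the 3-unit words GAANNTTCNNGAA and TTCNNGAANNTTC, which contain them. Of all 32851 windows, 15.1% held a 2-unit word and 0.603% a 3-unit word. The stretches around the matches upstream of the start are shown because they hold these exact words, which capitals mark. A match describes the sequence and does not show that the factor binds there.
Hspa1a (chr17:34972223-34972290, minus strand): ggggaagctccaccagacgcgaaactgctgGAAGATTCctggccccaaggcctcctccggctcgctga
Hspa1b (chr17:34959305-34959372, minus strand): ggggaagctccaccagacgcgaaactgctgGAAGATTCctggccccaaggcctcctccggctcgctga
Dnaja1 (chr4:40722314-40722381, plus strand): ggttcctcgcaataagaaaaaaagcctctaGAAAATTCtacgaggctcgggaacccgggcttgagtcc
Hspe1 (chr1:55088053-55088082, plus strand): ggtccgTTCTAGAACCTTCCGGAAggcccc
Hsph1 (chr5:149636351-149636380, minus strand): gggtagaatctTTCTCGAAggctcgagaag

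Hspa1a and Hspa1b, intronless copies 9951 bases apart on chromosome 17 that encode the stress-inducible Hsp70, held the same stretch with the word beginning 104 bases before either start. Over the 250 bases upstream the copies differed at 3 positions. The stretch of Hspe1 lies between the start sites of Hspe1 and of a transcript of Hspd1 on the other strand, so it is read in reverse in the Hspd1 window, and it joins both 3-unit words in 1 run. Hsph1 held a 3-unit word only past its start, as well as the 2-unit word shown. The Hsph1 word shown is upstream of the RefSeq start but inside the GENCODE gene model. A 2-unit word was thus in the windows of 6 members and a 3-unit word in those of 3, while the windows of Dnajb1 held none of these exact words, which says nothing of other forms of the element. The 7 members had 12 windows in all, so these counts per member cannot be set directly against the shares per window.

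The question put to the 2 groups was whether chaperone transcripts differ between NKT1 cells that carry or lack the CD4 coreceptor. In bulk samples such as these, fewer cells of a type and less RNA per cell cannot be told apart. By edgeR's quasi-likelihood test none of the 10 members passed at an adjusted p under 0.05, where 0.212% of all 12760 tested genes did. Unadjusted p-values of the members were 0.368 to 0.990 by edgeR, DESeq2 and limma-voom also gave no member a p under 0.05, and the groups overlapped for all 10 (9.41% of all tested genes had groups that did not overlap). The median log2 difference of the members was -0.13, against -0.0058 over all tested genes. Without CD4-negative replicate 1 only Hspe1 stayed below 0 (-0.39), so this lean was not stable when a library was left out.

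**Figure D1:**
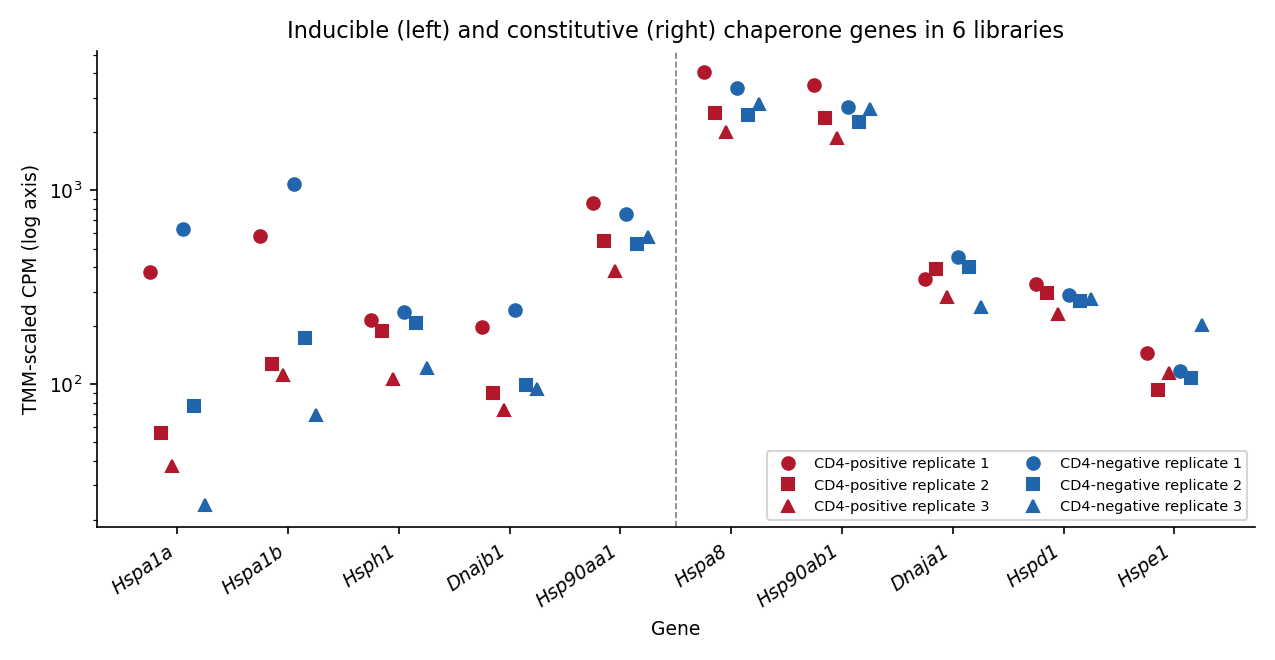
TMM-scaled CPM (log axis) of the 10 chaperone genes, with 1 point per library, coloured by group and shaped by replicate. Hspa1a ranged from 23.7 to 627 CPM and Hspa1b from 69.0 to 1073 CPM, with both replicate 1 libraries (circles) on top, while Hspd1 stayed between 231 and 327 CPM.

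Hspa1b, the more abundant copy of inducible Hsp70, stood at 581, 126 and 111 CPM in CD4-positive replicates 1, 2 and 3 and at 1073, 173 and 69.0 CPM in CD4-negative replicates 1, 2 and 3. The replicate 1 libraries of both groups were the highest, and the lower of them was 3.35-fold above the highest other library. The group means were 273 ± 267 and 438 ± 552 CPM, with SDs close to or above the means, and the log2 difference of -0.68 had a 95% interval of -3.11 to 1.75.

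Hspa1a showed the same order of libraries as Hspa1b, with 378, 56.1 and 37.8 CPM in CD4-positive replicates 1, 2 and 3 and 627, 77.4 and 23.7 CPM in CD4-negative replicates 1, 2 and 3. Its highest library was 26.5-fold above its lowest, the widest range among the members. The group means were 157 ± 192 and 243 ± 334 CPM (log2 difference -0.63, 95% interval -3.56 to 2.31). This difference turned to 1.64 when CD4-negative replicate 1 was left out, and that of Hspa1b to 1.17, so the direction rested on that library.

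The transcripts of both copies (2967 and 2803 bases, GENCODE M21) were 99.3% identical over their aligned part, and 47.1% of the 100-base windows of Hspa1a occurred unchanged in Hspa1b. Their estimated counts were fractional in 6 of 6 libraries, as arises when reads are shared. So were those of Hsp90aa1, Hspa8, Dnaja1 and Hspd1, and those of Hspe1 in 3 libraries. Fractional counts are therefore not particular to the copies. Because the copies are so alike in sequence, the split between them is uncertain and their sum is the safer measure. The sum was 960, 183 and 149 CPM in the CD4-positive and 1700, 251 and 92.7 CPM in the CD4-negative libraries, in the order of replicates 1, 2 and 3. The estimated share of Hspa1a in the sum was 39.4% and 36.9% in the replicate 1 libraries and 25.3% to 30.9% in the others. Within replicate numbers 1 and 2 the CD4-negative library held more of the sum, and within number 3 the CD4-positive library did. Fitted as 1 gene, the sum had a log2 difference of -0.66 between the groups (adjusted p = 0.99999 by edgeR).

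Dnajb1, the J-domain protein Hsp40 that hands clients to inducible Hsp70, stood at 197, 90.2 and 73.2 CPM in CD4-positive replicates 1, 2 and 3. In the CD4-negative libraries it stood at 242, 99.0 and 94.0 CPM in the same order. Both replicate 1 libraries were at least 1.99-fold above all others, which lay close together at 73.2 to 99.0 CPM. Between the groups the log2 difference was -0.27 (95% interval -1.42 to 0.88).

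Hsph1, which encodes Hsp110, the exchange factor that resets Hsp70, set the replicate 1 libraries apart far less. It stood at 214, 187 and 106 CPM in the CD4-positive and 234, 207 and 121 CPM in the CD4-negative libraries. The lower replicate 1 library exceeded the highest replicate 2 library by only 1.04-fold. The replicate 3 libraries of both groups were the lowest, as they were for Hspa1a and Hspa1b. The groups were close at 169 ± 56.1 and 187 ± 58.9 CPM (log2 difference -0.15, 95% interval -0.92 to 0.62).

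Hsp90aa1, the inducible form of cytosolic Hsp90, was the most abundant inducible member at 857, 548 and 383 CPM in CD4-positive and 750, 526 and 571 CPM in CD4-negative replicates 1, 2 and 3. The lower replicate 1 library was 1.31-fold above the highest other. The CD4-positive library was here the higher of the replicate 1 pair, the reverse of Hspa1a, Hspa1b and Dnajb1. The group means of 596 ± 241 and 616 ± 118 CPM gave a log2 difference of -0.046 (95% interval -0.76 to 0.67).

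Among the constitutive members, Hspa8, the cognate Hsp70 that folds new proteins in resting cells, had the highest CPM. It stood at 4049, 2487 and 1997 CPM in CD4-positive and 3349, 2436 and 2772 CPM in CD4-negative replicates 1, 2 and 3. Hsp90ab1, the constitutive cytosolic Hsp90, held 3496, 2352 and 1858 CPM and then 2682, 2244 and 2625 CPM in the same order. Both were highest in CD4-positive replicate 1, and the lower replicate 1 library exceeded the highest other by 1.21-fold for Hspa8 and 1.02-fold for Hsp90ab1. The log2 differences between the groups were close to 0 for Hspa8 (95% interval -0.69 to 0.68) and 0.029 for Hsp90ab1 (95% interval -0.58 to 0.64).

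Dnaja1, a J-domain partner of Hspa8, stood at 349, 390 and 282 CPM in CD4-positive and 451, 402 and 251 CPM in CD4-negative replicates 1, 2 and 3. It was highest in CD4-negative replicate 1, but CD4-positive replicate 1 lay below both replicate 2 libraries. Its log2 difference between groups was -0.11 (95% interval -0.70 to 0.47).

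Hspd1 and Hspe1 encode the mitochondrial chaperonin Hsp60 and its lid Hsp10 and are neighbours on chromosome 1 that are read in opposite directions, with gene models that overlap by 112 bases. Hspd1 was the steadiest member, at 327, 295 and 231 CPM in CD4-positive and 288, 268 and 276 CPM in CD4-negative replicates 1, 2 and 3 (1.41-fold from lowest to highest). Hspe1 stood at 145, 93.5 and 115 CPM and at 117, 108 and 202 CPM in the same order. The highest Hspe1 library was CD4-negative replicate 3, in which Hspd1 stood at 276 CPM, below both CD4-positive replicates 1 and 2, so the neighbours ranked the libraries differently. The log2 differences between groups were 0.037 (95% interval -0.37 to 0.44) for Hspd1 and -0.27 (-0.94 to 0.39) for Hspe1.

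**Figure D2:**
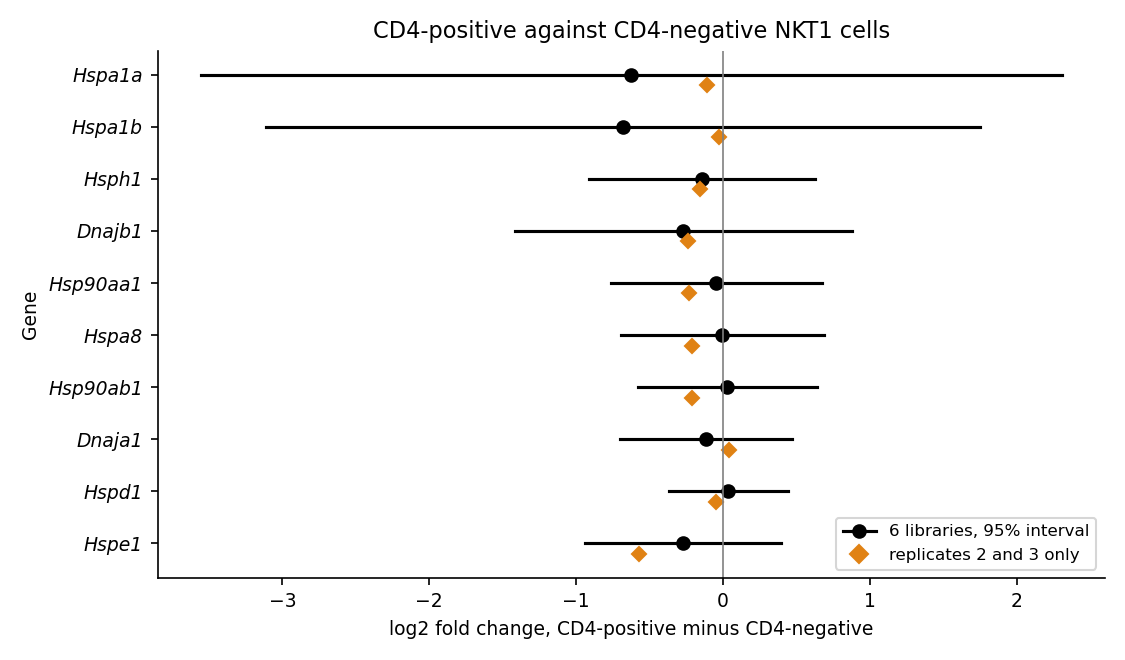
Log2 fold change of each member, CD4-positive minus CD4-negative, with its 95% interval from the edgeR fit of 6 libraries (black) and the value from the replicate 2 and 3 libraries only (orange). All 10 intervals include 0, and that of Hspa1a, -3.56 to 2.31, was the widest.

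Read per kilobase of the longest coding transcript, which allows genes to be compared, Hspa8 and Hsp90ab1 led with medians over the 6 libraries of 1098 and 987 CPM per kb. Their ranges overlapped (834 to 1692 and 737 to 1387 CPM per kb), and with the length of all exons merged their order was reversed, 611 against 830. Hsp90aa1 followed at a median of 171 CPM per kb, Hspe1 at 150 and Hspd1 at 116, with overlapping ranges. Below them lay Dnaja1 (65.7), Hspa1b (53.5), Hsph1 (51.8), Dnajb1 (32.2) and Hspa1a (22.5), again with overlapping ranges. Merged exons also reversed the order of Hspe1 and Hspd1 (78.5 against 107), of Dnaja1 and Hspa1b (42.8 against 53.5) and of Hsph1 and Dnajb1 (27.1 against 30.1). Because the inducible Hsp70 copies varied most, their place in the order depended on the library: in CD4-negative replicate 1 Hspa1b, at 383 CPM per kb, stood above Hsp90aa1 at 228.

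Inducible and constitutive partners were then compared within each library, where the scaling between libraries cancels. Hspa1a and Hspa1b together amounted, per kilobase, to 19.8% of Hspa8 in CD4-positive replicate 1 and 42.5% in CD4-negative replicate 1. In the other 4 libraries this share was 2.82% to 8.64%, so the replicate 1 libraries of both groups stood apart. Hsp90aa1 amounted to 18.8% and 21.5% of Hsp90ab1 in the replicate 1 libraries and to 15.8% to 18.0% in the others, a far narrower spread. For the J-domain pair, the ratio of Dnajb1 to Dnaja1 per kilobase was 1.06 and 1.01 in the replicate 1 libraries and 0.434 to 0.703 in the others. The level of such ratios depends on the length used, while the order of the libraries does not. With merged exons the Hsp70 share was 35.6% and 76.3% in the replicate 1 libraries against 5.06% to 15.5%, and the J-domain ratio was 1.52 and 1.45 against 0.623 to 1.01.

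**Figure D3:**
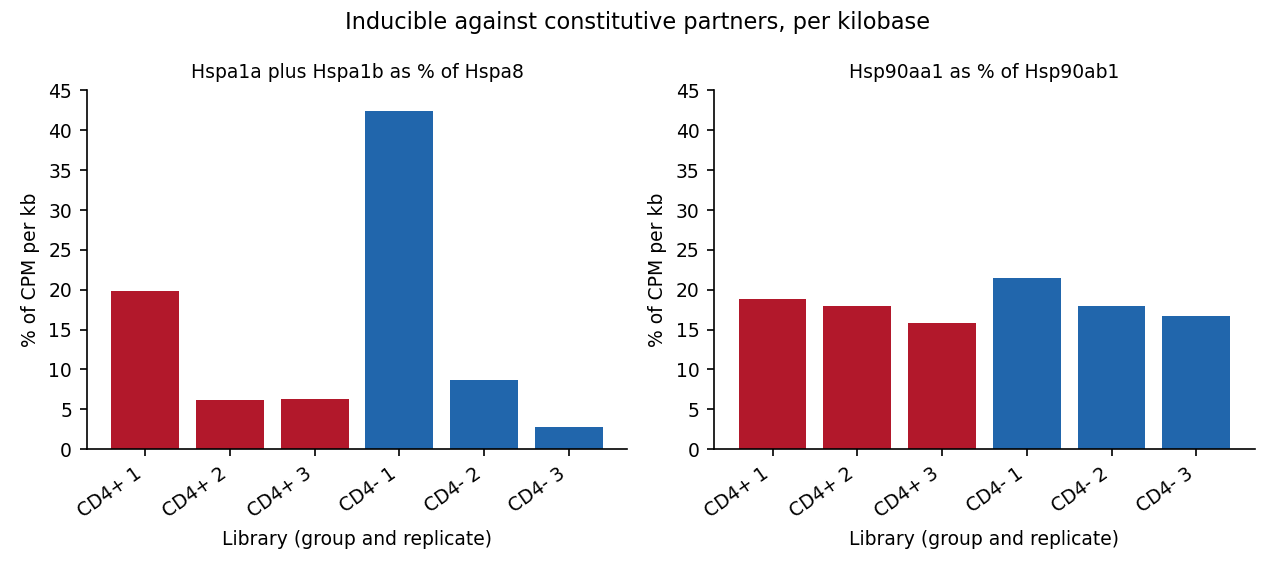
CPM per kb of Hspa1a plus Hspa1b as a percentage of Hspa8 (left) and of Hsp90aa1 as a percentage of Hsp90ab1 (right), with 1 bar per library (red CD4-positive, blue CD4-negative). The Hsp70 share was 19.8% and 42.5% in the replicate 1 libraries against 2.82% to 8.64% in the others, while the Hsp90 share stayed between 15.8% and 21.5%.

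Averaged over the lists on the log2 CPM scale, the inducible members lay 0.98 below the constitutive ones in CD4-positive replicate 1 and 0.45 below in CD4-negative replicate 1. The other libraries had differences of -1.98, -2.21, -1.75 and -2.64 for CD4-positive replicates 2 and 3 and CD4-negative replicates 2 and 3. The replicate 1 libraries thus averaged 1.43 above the mean of the other 4 libraries (1.17 for the CD4-positive and 1.69 for the CD4-negative library), while the groups themselves were at -1.72 ± 0.66 and -1.61 ± 1.10. This is a description of chosen genes and carries no test.

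In both replicate 1 libraries 7 of the 10 members stood above every other library, all 5 inducible members and, of the constitutive ones, Hspa8 and Hsp90ab1, where 3.95% of all tested genes did. By at least 1.5-fold 3 members did so, Hspa1a, Hspa1b and Dnajb1, against 0.494% of all tested genes. Hspa1a and Hspa1b are counted separately here although their split is uncertain. With the copies summed, 6 of 9 members stood above every other library in both replicate 1 libraries. Relative to the mean of replicates 2 and 3 of the same group, Hspa1a was 8.05-fold higher in CD4-positive and 12.4-fold higher in CD4-negative replicate 1, Hspa1b 4.89-fold and 8.85-fold, and Dnajb1 2.42-fold and 2.51-fold. Ranked by the gap between the lower replicate 1 library and the highest other, Hspa1a was number 8, Hspa1b 10 and Dnajb1 23 of 8028 genes with a mean of at least 10 CPM. Dnaja1, Hspd1 and Hspe1 did not stand apart in replicate 1. The comparison of replicate 1 with the others was proposed with results of these data known, so it is given without a test.

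**Figure D4:**
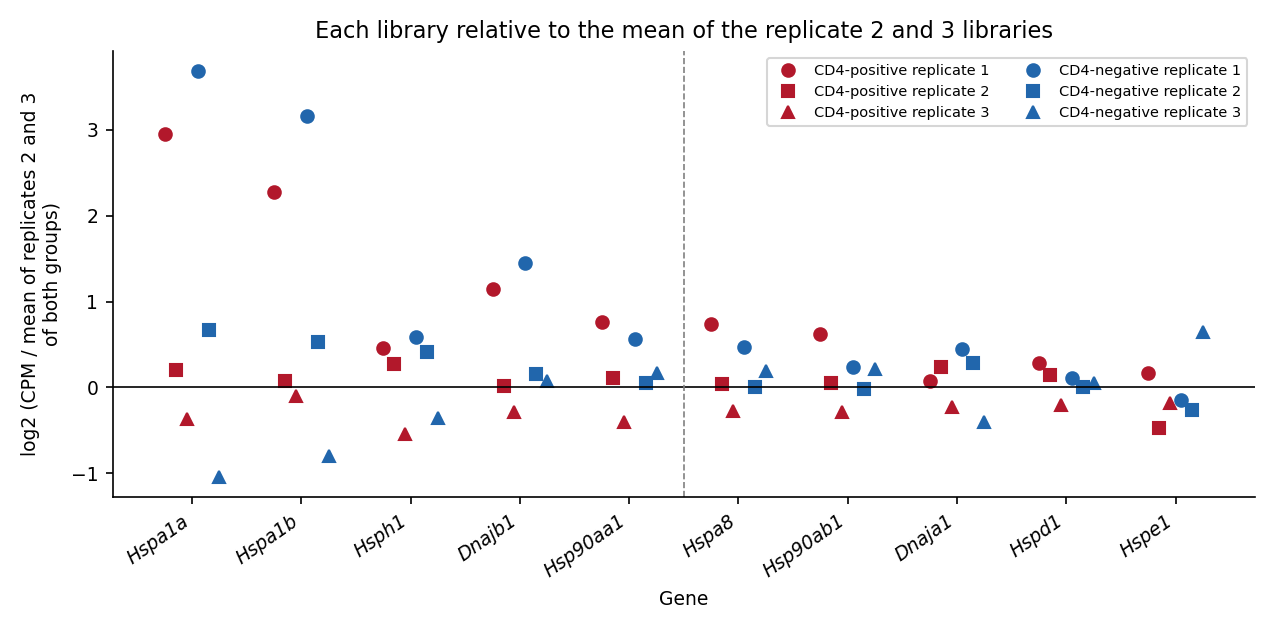
Log2 ratio of each library to the mean of the 4 replicate 2 and 3 libraries, for each member, coloured by group and shaped by replicate. Both replicate 1 libraries (circles) rise furthest above 0 for Hspa1a, Hspa1b and Dnajb1, the members at least 1.99-fold above every other library.

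The replicate 1 libraries also differed from each other, in either direction by member. CD4-negative replicate 1 had more than CD4-positive replicate 1 of Hspa1b (1.84-fold), Hspa1a (1.66-fold), Dnaja1 (1.29-fold), Dnajb1 (1.23-fold) and Hsph1 (1.09-fold). It had less of Hspd1 (0.881-fold), Hsp90aa1 (0.875-fold), Hspa8 (0.827-fold), Hspe1 (0.805-fold) and Hsp90ab1 (0.767-fold). These are ratios of single libraries, with no replicate check.

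Other signs moved with replicate number 1. Immediate early genes, which cells switch on within minutes of receptor signals or handling, summed in replicate 1 to 3949 CPM for CD4-positive and 5691 CPM for CD4-negative cells, against 1157 to 1565 CPM in the other libraries. Of 18 members 16 were above every other library in both replicate 1 libraries, all but Btg2 and Ier3. Atf3, a stress-induced transcription factor, stood at 16.5 and 17.0 CPM in replicate 1 and at 0.167 to 0.636 CPM in the others, and Dusp1, a phosphatase that shuts off MAP kinases, at 626 and 850 CPM against 28.6 to 42.0 CPM. The erythroid markers went the other way, with sums of 276 and 283 CPM in the replicate 1 libraries and 360 to 701 CPM in the others. Of these markers 4 of 5 were below every other library in both. The share of all tested genes below in both was not computed, so no result is drawn from this count. The part of the immediate early genes, of the Y-linked transcripts and of the erythroid markers in the chaperone result was not tested.

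The 8 genes outside the members whose profile over the 6 libraries was most like the mean profile of the inducible members were, in order, Zfp36, Siah2, Nfkbiz, Rgs1, Irs2, Bag3, Bhlhe40 and Dusp5. Likeness was the root mean square difference of log2 CPM centred over the 6 libraries, which was 0.16 for Zfp36 and 0.34 for Dusp5, against a median of 0.91 over the genes with a mean of at least 10 CPM. Zfp36, which encodes an RNA-binding protein that speeds the decay of cytokine transcripts, stood at 479, 163 and 135 CPM in CD4-positive and 581, 174 and 95.01 CPM in CD4-negative replicates 1, 2 and 3. Among the members themselves Dnajb1 lay nearest the mean profile (0.30), which includes Dnajb1, and Hspe1 farthest (0.99). The inducible Hspa1a (0.85) lay farther than the constitutive Hspa8 (0.63), Dnaja1 (0.69), Hsp90ab1 (0.72) and Hspd1 (0.79). The measure thus did not separate inducible from constitutive members. Profiles were centred but not scaled, so the measure counts the size of the swings as well as the order of the libraries.

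The other chaperone genes were read from 8 lists of 125 genes in all, of which 114 were tested, and none passed the test between the groups. Of the 114, 14 (12.3%) were above every other library in both replicate 1 libraries, most of them by narrow margins, and 2 by at least 1.5-fold. These were Bag3, an Hsp70 exchange factor and heat shock factor 1 target, and Hspa2, another Hsp70 gene. Bag3 stood at 23.9, 7.63 and 5.69 CPM in CD4-positive and 18.4, 7.37 and 7.57 CPM in CD4-negative replicates 1, 2 and 3. Hspa2 stood at 4.77 and 3.57 CPM in the replicate 1 libraries, against 0.757 to 2.26 CPM elsewhere.

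By list, 6 of 15 tested heat shock factors and other targets were above every other library in both replicate 1 libraries, among them Bag3 and the J-domain gene Dnajb4 (8.51 and 13.5 CPM against 3.70 to 6.53 CPM). The lists of other Hsp70 genes and exchange factors (3 of 16), J-domain proteins (3 of 25) and Hsp90 co-chaperones (3 of 15) followed, and lists share genes. The Hsp90 co-chaperones included Stip1, which links Hsp70 to Hsp90 (282 and 247 CPM against 130 to 222 CPM). Of the endoplasmic reticulum chaperones 2 of 18 were above, Dnajb9 and Hspa5, which encodes BiP (1011 and 831 CPM against 611 to 744 CPM). No gene of the cytosolic chaperonin TRiC and prefoldin (0 of 15), of the mitochondrial chaperones and proteases (0 of 13) or of the small heat shock proteins (0 of 3) was above. Small heat shock proteins were scarce, with 10 genes summing to 2.69 to 5.40 CPM and Hspb3 and Hspb7 at 0 in all libraries.

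**Figure D5:**
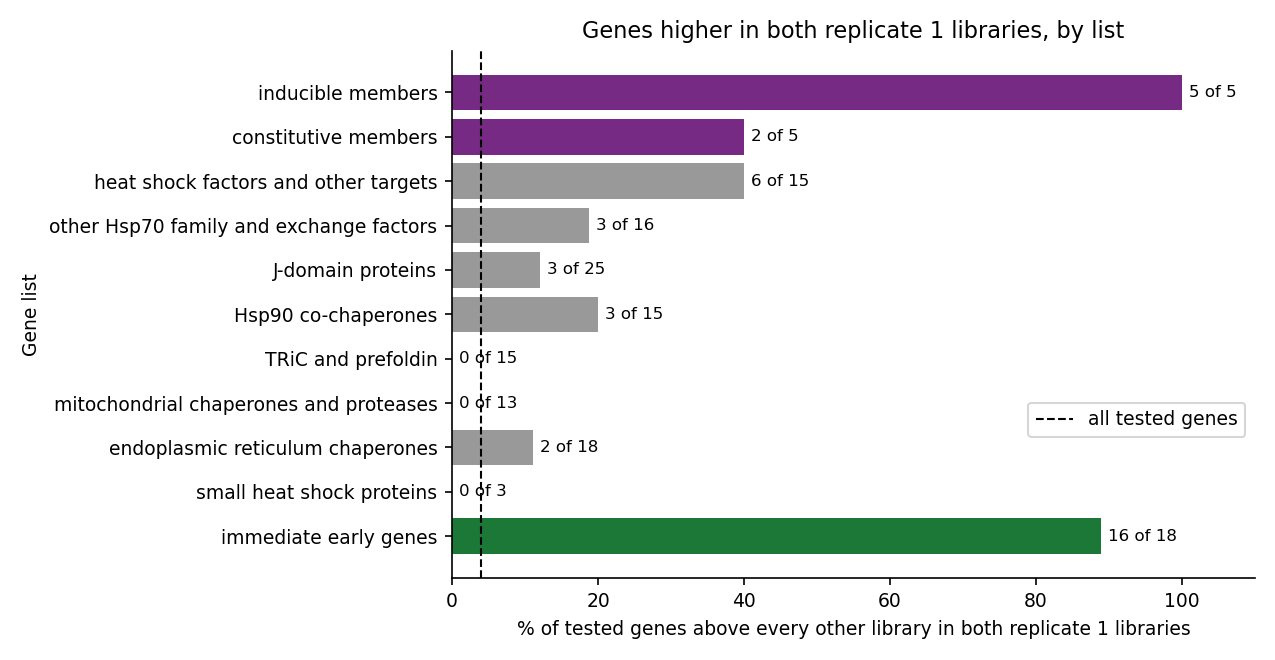
Percentage of the tested genes of each list that stood above every other library in both replicate 1 libraries, with counts beside the bars; the dashed line is the share of all tested genes, 3.95%. The inducible members (5 of 5, Hspa1a and Hspa1b counted separately) and the immediate early genes (16 of 18) had the highest shares. TRiC and prefoldin, mitochondrial chaperones and proteases and small heat shock proteins had none.

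Between the groups, the other chaperone lists had median log2 differences of -0.079 to 0.069, apart from the 3 tested small heat shock proteins (0.47). The genes with the smallest p of their lists included the endoplasmic reticulum protein Sdf2l1 (32.7 ± 3.07 CPM with CD4 and 40.1 ± 0.34 CPM without, adjusted p = 0.99999 by edgeR) and the Hsp70 relative Hspa4l (18.2 ± 3.01 and 14.5 ± 2.38 CPM, adjusted p = 0.99999 by edgeR). Fkbp5, an Hsp90 co-chaperone and glucocorticoid target, stood at 97.7 ± 22.4 and 81.6 ± 2.96 CPM. In the mitochondrial list Dnajc15 stood at 23.4 ± 5.59 and 35.02 ± 16.8 CPM. None of these genes passed the test, and of them only Sdf2l1 had groups that did not overlap. The groups did not overlap either for Hspa1l, which was scarce (0.25 ± 0.11 CPM with CD4 and 0.57 ± 0.073 CPM without), and Cdc37l1 (25.7 ± 0.35 and 23.8 ± 0.74 CPM). They were also among the genes with the smallest p of their lists and did not pass the test. Of all tested genes 9.41% had groups that did not overlap. The share among the other chaperone genes was not computed, so no result about chaperones is drawn from these genes.

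With only the replicate 2 and 3 libraries, the spread between groups narrowed for the inducible Hsp70 copies, with log2 differences of -0.11 for Hspa1a and -0.027 for Hspa1b. The largest difference among the members was then that of Hspe1, -0.57, with an adjusted p = 0.971 by edgeR. No member passed the test in any of the fits, and the smallest unadjusted p of a member in any of them was 0.119.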

How the data were processed

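RNA from 6 sorted libraries was prepared with a stranded mRNA kit and sequenced in paired ends, per the labels' protocols. The authors deposited estimated counts per gene, not normalised; per the submitters' processing notes STAR, Picard, RSEM and mm10 were used in the work, and which annotation and strand setting served for counting is not given in the sources used here. Columns were matched to samples by library name. Counts were rounded and tested with edgeR 4.0.16 in R 4.3.3 (filterByExpr, 12760 genes, TMM, robust quasi-likelihood F test on group, 2-sided, Benjamini-Hochberg at 0.05). SEs and 95% intervals derive from the F statistic. Gaps between libraries use log2(CPM + 0.5). 1 count is worth 0.0188 to 0.0247 CPM. In simulated counts for this comparison (12445 genes) edgeR recovered 94% of 4-fold and 32% of 2-fold changes, with 8 false among 134 calls. Alternatives were RLE scaling, DESeq2 1.42.0, limma-voom (limma 3.58.1), 2 filters, a replicate block, a naming-scheme batch term, summed Hspa1 copies and libraries left out. The batch term set the replicate 3 libraries apart, because their library names follow another pattern than the rest. The labels do not say what the pattern stands for. Leaving out both replicate 3 libraries was added after seeing the data.

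Members and lists were chosen with earlier results of these data known. The text names all members, Cd4, the 8 nearest profiles and, per list, some of the genes with the smallest p or the largest replicate 1 gap. The rule took 2 of each per list, and none of those left unnamed passed the test between the groups. Ier3, Btg2, Hspb3, Hspb7 and Xist were named after their values were seen. Coordinates are GRCm38 (GENCODE M21, RefSeq).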

Additional observations from a re-analysis of the deposited data

How the results depend on the processing

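The absence of member calls held under every alternative run: 0 members passed in each, with adjusted p of at least 0.884. Of 159 member fold changes refitted under an alternative, 133 kept their direction and 26 changed it, none past the threshold. Direction changed for Hsp90ab1 with limma-voom (-0.016) and with the replicate block (-0.015), and for Hspa8 with a mean of at least 5 CPM (4e-04). Ranges with libraries left out, singly or both of a number, were -2.37 to 1.64 for Hspa1a, -1.88 to 1.17 for Hspa1b, -0.83 to 0.32 for Dnajb1, -0.38 to 0.10 for Hsph1, -0.40 to 0.19 for Hsp90aa1, -0.35 to 0.20 for Hspa8, -0.26 to 0.25 for Hsp90ab1, -0.32 to 0.0605 for Dnaja1, -0.073 to 0.17 for Hspd1 and -0.57 to 0.092 for Hspe1. Over all genes 27 passed in the main fit, 162 with DESeq2 (which tests more genes), 67 with no filter on low counts, 11 with the naming scheme as a batch term, and 0 to 44 with libraries left out, the 44 without CD4-negative replicate 3. With the replicate block 0 passed by edgeR (531 at an unadjusted p under 0.05); the check did not show that the numbers pair the samples, since the correlation of same-numbered deviations from the group means was -0.080 for number 1, 0.34 for number 2 and 0.036 for number 3, and not every library correlated best with its own number, although both libraries of number 1 share Y-linked transcripts. Dnajb1 and Hsph1 were higher in the CD4-negative library within 3 of 3 numbers, with blocked log2 differences of -0.26 and -0.15 (adjusted p = 0.9999 by edgeR for either). The other members changed direction between numbers. The share of all tested genes that kept 1 direction was not computed, so no result about the members is drawn from this. The excess of inducible over constitutive members in replicate 1 (1.43) was 2.50 for Hspa1a and Hspa1b against Hspa8, 0.23 for Hsp90aa1 against Hsp90ab1 0.64 with Dnaja1, Hspd1 and Hspe1 counted as inducible and 1.07 with Hspa1a and Hspa1b summed; its range with libraries left out was 1.17 to 1.69, and that of the group difference (-0.11) was -0.62 to 0.47. The causes of these moves were not tested. With 3 libraries a group, differences of 2-fold were often missed in simulation, so smaller changes between the groups cannot be seen reliably at this size. The simulated recovery was not computed for single members. For Hspa1a and Hspa1b the 95% intervals of the log2 difference were -3.56 to 2.31 and -3.11 to 1.75. For these copies the test thus does not exclude even a 4-fold higher level in the CD4-negative group. For Hspa1a it does not exclude a 4-fold higher level in the CD4-positive group either.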
